A study of Arabidopsis thaliana with 8 samples.

Results

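A set of 6 auxin response and lateral root regulators was followed across formin-impaired and wild-type Arabidopsis seedlings. They were IAA20 (AT2G46990), IAA29 (AT4G32280), GH3.3 (AT2G23170), WES1 (AT4G27260, also called GH3.5), LBD16 (AT2G42430) and LBD29 (AT3G58190), found by RefSeq symbol among 16554 genes tested. Each was read by 1 probe set. IAA20, GH3.3, WES1 and LBD16 were lower than in wild type under both kinds of formin impairment. LBD29 was lower in the fh1-1 mutant and not in SMIFH2-treated seedlings, whose liquid-grown controls were already lower in LBD29 than wild type on solid medium. A direct test of the difference between those 2 effects on LBD29 missed its threshold (limma, adjusted p = 0.0508). IAA29 was lower under SMIFH2, a call that some alternative settings of the analysis lost. Neither its change in fh1-1 nor the difference between its 2 effects passed the test.

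Auxin controls much of root and shoot growth by releasing ARF transcription factors from Aux/IAA repressors, which are broken down when auxin binds its receptors. Many Aux/IAA and GH3 genes are themselves switched on by auxin and dampen the response: Aux/IAA proteins by repression, and GH3 enzymes by joining auxin to amino acids. LBD16 and LBD29 are transcription factors that act downstream of ARF proteins in the root pericycle, where they start lateral roots.

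Each array held RNA of a separate pool of about 120 whole seedlings, 7 days old, of the Columbia background, and each group had 2 arrays. Formins nucleate and elongate actin filaments. The SMIFH2 liquid group was FH1 wild type given 20 uM SMIFH2, a synthetic compound that blocks the FH2 domain through which formins bind actin. The fh1-1 solid group carried the fh1-1 mutation in FH1, which encodes a membrane-anchored formin. The wt liquid group was wild type without SMIFH2, and whether it received a solvent is not stated in the labels. Both liquid groups grew for 6 days on solid MS medium with 16 h of light and 8 h of darkness a day. They then spent 1 day in liquid MS with shaking under continuous light. The wt solid group was a backcrossed wild-type sister of the mutant and, like fh1-1, stayed on solid MS until day 7, with 16 h of light and 8 h of darkness a day. The fh1-1 and SMIFH2 comparisons used different control arrays. Values are log2 expression, on which a difference of 1 is a 2-fold change. They set 1 gene against itself between groups and do not rank genes by abundance.

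Array medians were 3.89 to 3.96, and the 25th percentile over all probe sets was 2.13 to 2.24. Arrays of a group correlated at r = 0.977 to 0.986 over all probe sets, and SMIFH2 liquid arrays correlated with fh1-1 solid arrays at r = 0.981 to 0.983. The wt liquid arrays correlated with the wt solid arrays at 0.967 to 0.972, and formin-impaired with wild-type arrays at 0.945 to 0.965. Whether the formin-impaired arrays shared anything besides formin impairment was not tested. FH1 had 0 listed probe sets, and its transcript could not be used to check the mutant label. All differences were tested with limma over the 16554 genes with Benjamini-Hochberg adjustment, and a gene was called at an adjusted p under 0.05. The number of arrays limits the precision.

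Of the 6 genes, 5 fell under SMIFH2 and 0 rose, where 14.9% of all genes were called, 7.07% lower and 7.78% higher. In fh1-1 5 fell and 0 rose, where 22.6% of all genes were called, 11.7% lower and 10.9% higher. The median log2 difference over the 6 genes was -1.03 under SMIFH2 and -0.92 in fh1-1, beside -0.02 and -0.05 over all genes. The arrays of the 2 groups did not overlap for 6 of the 6 genes under SMIFH2 (53.8% of all genes) and for 5 in fh1-1 (60.9% of all genes). Under SMIFH2 5 of these lay lower and LBD29 lay higher, and in fh1-1 all 5 lay lower. IAA20, GH3.3, WES1 and LBD16, 4 of the 6, were called lower in both comparisons, as were 4.72% of all genes. The 6 genes were chosen with earlier results of these data known, so these shares are no test of auxin genes as a set. In the RNA of whole seedlings, fewer cells of a type and less RNA per cell cannot be told apart.

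**Figure D1:**
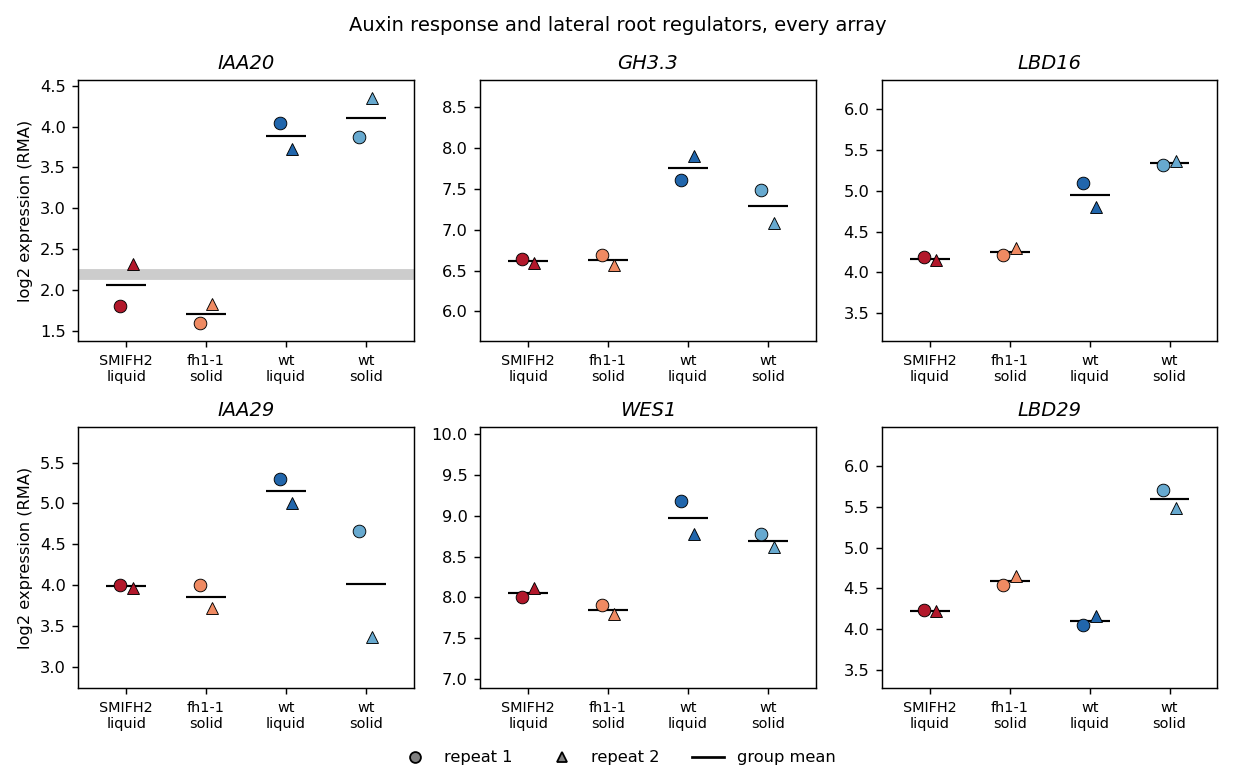
Log2 expression of the 6 genes on every array, with groups on the horizontal axis, circles for repeat 1, triangles for repeat 2 and bars for group means. The grey band marks the 25th percentile of the arrays, 2.13 to 2.24, beside IAA20. The SMIFH2 and fh1-1 points of IAA20, GH3.3, WES1 and LBD16 lie below all 4 wild-type points, while LBD29 is high only on the 2 wt solid arrays.

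IAA20, an Aux/IAA protein without the degron that auxin receptors recognise, had the largest fall of the 6 genes under both impairments. It read 1.80 and 2.31 on the SMIFH2 liquid arrays, against 4.04 and 3.73 on the wt liquid arrays. It read 1.59 and 1.82 on the fh1-1 solid arrays, against 3.87 and 4.35 on the wt solid arrays. All 4 formin-impaired arrays lay below all 4 wild-type arrays, and the 2 wild-type groups overlapped. The log2 difference was -1.83 ± 0.23 (SE) under SMIFH2, a 3.56-fold fall (adjusted p = 0.000633). In fh1-1 it was -2.40 ± 0.23, a 5.29-fold fall (adjusted p = 7.08e-05). Both mutant arrays and 1 SMIFH2 array were under their array's 25th percentile of all probe sets, so a signal above background was not shown there and the true ratio may be larger.

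IAA29, an Aux/IAA protein whose transcript is known to rise in shade, gave a less steady picture. It read 4.01 and 3.97 on the SMIFH2 liquid arrays, against 5.30 and 5.0 on the wt liquid arrays, and these groups did not overlap. It read 3.99 and 3.72 on the fh1-1 solid arrays, against 4.67 and 3.36 on the wt solid arrays. The 2 wt solid arrays thus lay above and below both mutant arrays, with a standard deviation of 0.92 in that group. The SMIFH2 difference was -1.17 ± 0.34 (SE, adjusted p = 0.0453). It passed in 9 of 16 alternative settings, with adjusted p between 0.00302 and 0.195, and was lost when either SMIFH2 liquid, either wt liquid or either fh1-1 solid array was left out (0.161, 0.161, 0.195, 0.0788, 0.0656 and 0.0656) or with every probe set tested (0.125). The fh1-1 difference was -0.16 with a 95% interval from -0.91 to 0.60 (adjusted p = 0.803). Without wt solid repeat 1 it was 0.49 (adjusted p = 0.155), and without wt solid repeat 2 it was -0.81 (adjusted p = 0.0367); over the 16 alternatives adjusted p ran from 0.0367 to 0.986.

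Of the 29 Aux/IAA genes 8 were measured, and outside IAA20 and IAA29 none passed in the fh1-1, SMIFH2 or medium comparison. Of the other 6, 1 had an unadjusted p under 0.05 under SMIFH2, 1 between media and 0 in fh1-1. Their log2 differences ran from -0.45 to 0.02 under SMIFH2, with a median of -0.21. In fh1-1 they ran from -0.42 to 0.10, with a median of 0.01. IAA15, IAA30 and IAA33 were under the 25th percentile on 8 of 8 arrays and IAA31 on 3, so a signal above background was not shown there and a small difference says little about them. IAA18 and IAA34 were above it on every array. IAA31, a close relative of IAA20, had the lowest of these under SMIFH2, at -0.45 ± 0.15 (SE, adjusted p = 0.0807).

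**Figure D2:**
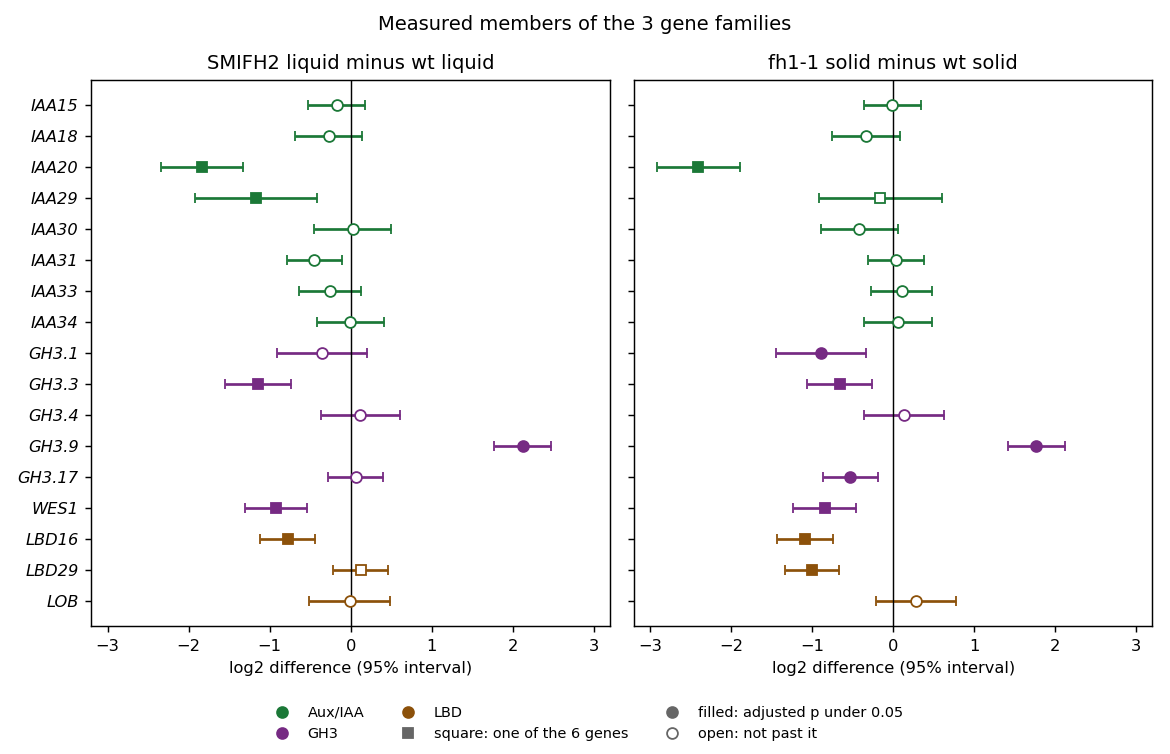
Log2 difference with 95% interval (limma) for each measured gene on the Aux/IAA, GH3 and LBD lists, SMIFH2 minus control on the left and fh1-1 minus wild type on the right. Filled symbols passed an adjusted p of 0.05 and squares are the 6 genes. IAA15, IAA30 and IAA33, near 0, were under the 25th percentile on 8 of 8 arrays, and GH3.9 lies opposite GH3.3 and WES1.

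GH3.3, which links auxin to amino acids, was near 6.6 on all 4 formin-impaired arrays. It read 6.65 and 6.59 on the SMIFH2 liquid arrays, against 7.61 and 7.91 on the wt liquid arrays. It read 6.70 and 6.56 on the fh1-1 solid arrays, against 7.49 and 7.09 on the wt solid arrays. Neither pair of groups overlapped. The difference was -1.14 ± 0.18 (SE) under SMIFH2, a 2.21-fold fall (adjusted p = 0.00243). In fh1-1 it was -0.66 ± 0.18, a 1.58-fold fall (adjusted p = 0.0257). The fh1-1 call was lost without wt solid repeat 1 (0.159), without fh1-1 repeat 1 (0.0834), without fh1-1 repeat 2 (0.144) and with every probe set tested (0.0604); it held in 12 of 16 alternative settings, with adjusted p from 0.00648 to 0.159.

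WES1, a GH3 enzyme that acts on auxin and on salicylic acid, followed the same order of groups except that fh1-1 was lowest. It read 8.00 and 8.11 on the SMIFH2 liquid arrays, against 9.18 and 8.78 on the wt liquid arrays. It read 7.91 and 7.79 on the fh1-1 solid arrays, against 8.77 and 8.62 on the wt solid arrays. Neither pair overlapped. The log2 differences were alike in size, -0.92 ± 0.17 (SE) under SMIFH2 (adjusted p = 0.00598) and -0.85 ± 0.17 in fh1-1 (adjusted p = 0.00604). They were 1.89-fold and 1.80-fold falls. Adjusted p was 0.0507 for SMIFH2 without SMIFH2 repeat 1, and 0.0501 for fh1-1 without fh1-1 repeat 2; each call held in the other 15 alternative settings.

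The measured GH3 genes did not move as a block. Of the 11 GH3 genes on the list 6 were measured: 2 fell and 1 rose under SMIFH2, and 4 fell and 1 rose in fh1-1. Over all genes 7.07% fell and 7.78% rose under SMIFH2, and 11.7% fell and 10.9% rose in fh1-1. The GH3 gene that rose in both was GH3.9 (AT2G47750), a family member linked by Arabidopsis mutants to primary root growth. It read 3.79 and 3.91 on the SMIFH2 liquid arrays, against 1.65 and 1.81 on the wt liquid arrays. It read 3.58 and 3.75 on the fh1-1 solid arrays, against 2.01 and 1.79 on the wt solid arrays. All 4 formin-impaired arrays were above all 4 wild-type arrays, which were under the 25th percentile. Its difference was 2.12 ± 0.16 (SE) under SMIFH2 (adjusted p = 3.15e-05) and 1.77 ± 0.16 in fh1-1 (adjusted p = 4.79e-05). With no wild-type signal shown above background, the true ratios may be larger.

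GH3.1 (AT2G14960) and GH3.17 (AT1G28130), both auxin-conjugating enzymes, fell in fh1-1 with less certainty. GH3.1 read 3.72 and 4.18 in fh1-1, against 4.62 and 5.05 in wt solid, a difference of -0.89 ± 0.25 (SE, adjusted p = 0.0286). That call was lost without wt solid repeat 2 (0.18), without fh1-1 repeat 1 (0.21) and with every probe set tested (0.08). GH3.17 read 6.87 and 7.13 in fh1-1, against 7.53 and 7.52 in wt solid, a difference of -0.53 ± 0.15 (adjusted p = 0.0307). That call was lost without wt solid repeat 1 (0.1), wt solid repeat 2 (0.11) or fh1-1 repeat 1 (0.23), and with every probe set tested (0.054). Under SMIFH2 GH3.1 had a difference of -0.35 (adjusted p = 0.416) and GH3.17 had 0.06 (adjusted p = 0.846). GH3.4, also auxin-conjugating, differed by 0.12 under SMIFH2 and 0.14 in fh1-1 (adjusted p = 0.785 and 0.732), and was under the 25th percentile on 5 of 8 arrays.

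LBD16, which promotes the first divisions of lateral root founder cells, fell under both impairments. It read 4.19 and 4.15 on the SMIFH2 liquid arrays, against 5.09 and 4.80 on the wt liquid arrays. It read 4.21 and 4.29 on the fh1-1 solid arrays, against 5.32 and 5.36 on the wt solid arrays. Each pair of groups was apart, and the 4 formin-impaired arrays spanned only 4.15 to 4.29. The difference was -0.78 ± 0.15 (SE) under SMIFH2, a 1.72-fold fall (adjusted p = 0.00804). In fh1-1 it was -1.09 ± 0.15, a 2.13-fold fall (adjusted p = 0.000782). The SMIFH2 call was lost without wt liquid repeat 1 (0.0519) and without SMIFH2 repeat 2 (0.051) and held in the other 14 alternative settings, while the fh1-1 call held in 16 of 16 alternative settings.

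LBD29, which acts with LBD16 in lateral root initiation, had a different pattern. It read 4.24 and 4.22 on the SMIFH2 liquid arrays, against 4.05 and 4.16 on the wt liquid arrays. It read 4.54 and 4.65 on the fh1-1 solid arrays, against 5.70 and 5.49 on the wt solid arrays. The wt solid group alone stood high, and the other 3 groups lay between 4.05 and 4.65. The fh1-1 difference was -1.0 ± 0.15 (SE), a 2.0-fold fall (adjusted p = 0.00114, called in 16 of 16 alternative settings). The SMIFH2 difference was 0.12 with a 95% interval from -0.21 to 0.46 (adjusted p = 0.669). The 95% interval of the fh1-1 difference was -1.33 to -0.66. A direct test of the difference between the 2 effects missed its threshold (limma, adjusted p = 0.0508).

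Among the 20 listed LBD genes only LOB, which marks organ boundaries, was measured besides LBD16 and LBD29. It did not pass in the fh1-1, SMIFH2 or medium comparison (differences of 0.28, -0.01 and 0.34, adjusted p = 0.439, 0.982 and 0.474). Of 19 other lateral root genes 2 were measured and 0 passed in those comparisons. PUCHI, a transcription factor of early primordia, differed by -0.16 under SMIFH2 and -0.04 in fh1-1 (adjusted p = 0.574 and 0.89). CR4, a receptor kinase of pericycle divisions, differed by 0.02 under SMIFH2 and 0.57 in fh1-1 (adjusted p = 0.958 and 0.0541). CR4 had an unadjusted p under 0.05 in fh1-1 and between media, and in fh1-1 it passed in 7 of 16 alternative settings, with adjusted p from 0.037 to 0.35. LOB and PUCHI were under the 25th percentile on 8 of 8 arrays, so a signal above background was not shown for either.

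Organ markers moved with the groups as well. The mean log2 level of the 7 measured root markers of 17 was 7.82 and 7.83 on SMIFH2 liquid arrays and 7.79 and 7.85 on fh1-1 solid arrays. It was 7.27 and 7.25 on wt liquid arrays and 8.02 and 8.21 on wt solid arrays. The 7 were the beta-glucosidases PYK10, BGLU21 and BGLU22, the jacalin lectins JAL22, JAL33 and JAL34, and the expansin EXPA7. The mean thus rests mainly on beta-glucosidase and lectin genes, and whether it follows the amount of root was not tested. PYK10 did not pass under SMIFH2, in fh1-1 or between media (differences of 0.25, -0.09 and -0.49, adjusted p = 0.29, 0.73 and 0.0824). Of all genes, 7.78% rose and 7.07% fell under SMIFH2, and 10.9% rose and 11.7% fell in fh1-1. Between media 368 of 16554 genes rose and 2.48% fell. Of the 7 root markers, 4 rose and 0 fell under SMIFH2, and 1 rose and 3 fell in fh1-1. In liquid against solid medium 0 of them rose and 5 fell. With single arrays left out, the SMIFH2 rises were 0 to 3 (0 without SMIFH2 repeat 2, and 1 without either wt liquid array) and the falls between media 2 to 5 (2 without wt solid repeat 2). The fh1-1 falls were 0 to 3 (0 without wt solid repeat 2 or fh1-1 repeat 1). BGLU22, a root beta-glucosidase, differed by -0.85 in fh1-1 (adjusted p = 0.00603). JAL33, a jacalin lectin, differed by -0.71 in fh1-1 (adjusted p = 0.00896) and -1.08 between media (adjusted p = 0.00438). JAL22, another lectin, differed by 0.90 under SMIFH2 (adjusted p = 0.0087) and -1.65 between media (adjusted p = 0.00122). EXPA7, a root hair expansin, was the marker higher in fh1-1, at 0.88 (adjusted p = 0.0181, lost without any 1 of the 4 arrays compared). Under SMIFH2 EXPA7 differed by 0.97 (adjusted p = 0.0166), and by 0.64 to 1.30 over 16 alternative settings, of which 13 kept the call. That call was lost with every probe set tested (0.058) and without wt liquid repeat 2 or SMIFH2 repeat 2. No root marker was below the 25th percentile on any array. The 9 measured shoot markers of 11 averaged 7.18 and 7.32 on SMIFH2 liquid arrays and 7.31 and 7.16 on fh1-1 solid arrays. They averaged 6.62 and 6.73 on wt liquid arrays and 6.13 and 6.09 on wt solid arrays, with at most 1 below the 25th percentile. Of these 9, 4 rose under SMIFH2, 7 in fh1-1 and 4 between media, and 0 fell. With single arrays left out, the rises were 4 under SMIFH2 and 6 to 7 in fh1-1, but 0 to 1 between media (0 without either wt solid array or wt liquid repeat 2). SBPASE and RCA, photosynthesis genes, differed by 1.77 and 1.2 under SMIFH2 (adjusted p = 6.64e-05 and 0.00051) and by 2.56 and 1.75 in fh1-1 (adjusted p = 4.25e-06 and 2.99e-05). PRK and HPR were the others that rose under SMIFH2. SPCH, MUTE and FMA differed there by 0.51, 0.21 and 0.06, and YAB2 and YAB3 by -0.34 and -0.21. None of these passed (adjusted p from 0.107 to 0.878). In fh1-1 YAB2 and YAB3 differed by 0.36 and 0.03 and did not pass (adjusted p = 0.256 and 0.923). Between media SBPASE differed by 0.69 and the stomatal gene FMA by 0.92 (adjusted p = 0.0293 and 0.0191). LBD29 and the root marker mean were highest on the wt solid arrays and lowest on the wt liquid arrays. The part of organ proportions in the LBD, GH3 and Aux/IAA results was not tested.

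**Figure D3:**
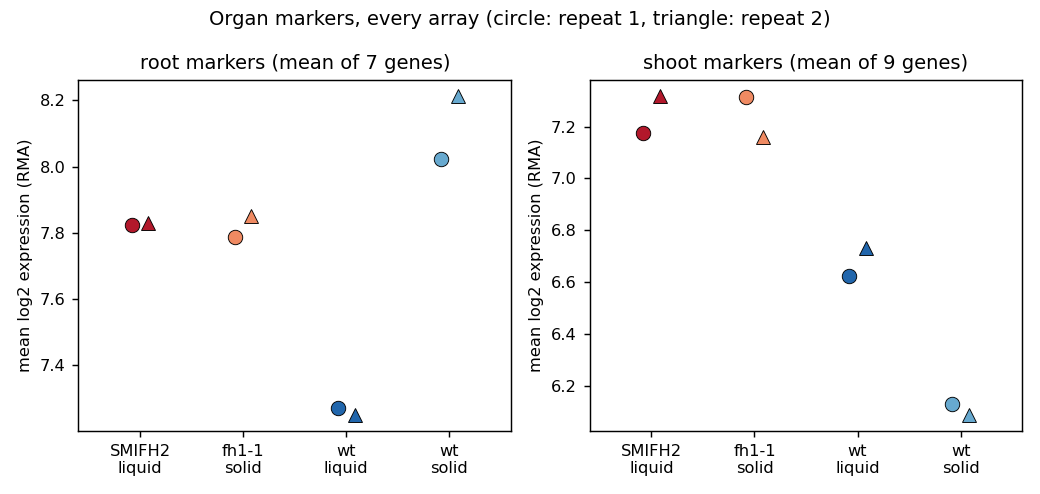
Mean log2 expression of 7 root markers (left) and 9 shoot markers (right) on every array, groups on the horizontal axis, circles for repeat 1 and triangles for repeat 2. Root markers are lowest in wt liquid and highest in wt solid, and shoot markers are higher on the 4 formin-impaired arrays than on the 4 wild-type arrays.

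Liquid against solid medium in wild type showed what the controls of the 2 impairments already differed in. This comparison shares its arrays with both, and it changes medium, shaking and light together, with a transfer after 6 days. Only LBD29 of the 6 genes passed, where 4.71% of all genes were called and 2.48% were called lower. It was -1.49 ± 0.15 (SE) in wt liquid against wt solid, a 2.81-fold fall (adjusted p = 0.00085, called in 16 of 16 alternative settings). IAA29 differed by 1.14 ± 0.34 (adjusted p = 0.0951), and by 1.79 without wt solid repeat 1 (adjusted p = 0.0056), which raised the count called among the 6 genes to 2; over 16 alternatives adjusted p ran from 0.0056 to 0.345. GH3.3 differed by 0.47, WES1 by 0.28, LBD16 by -0.39 and IAA20 by -0.22 (adjusted p = 0.192, 0.433, 0.202 and 0.672). The wt liquid and wt solid arrays did not overlap for 5 of the 6 genes, where 46% of all genes did not, and 4 of the 6 had an unadjusted p under 0.05. Of the other listed GH3 genes only GH3.17 passed, at -0.74 ± 0.15 (adjusted p = 0.0245).

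That GH3.17 call between media was lost in a fit of only the 4 arrays (0.079), with every probe set tested (0.068), and without either wt liquid array (0.073 and 0.074) or either wt solid array (0.087 and 0.11). GH3.17 read 6.79 and 6.80 on the wt liquid arrays, against 7.53 and 7.52 on the wt solid arrays. These values do not overlap, and on all 8 arrays GH3.17 was the symbol-bearing gene whose values ran most nearly parallel to LBD29.

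The difference between the 2 impairments was tested directly. For LBD29 the SMIFH2 effect minus the fh1-1 effect was 1.12 ± 0.21 (SE), with an unadjusted p of 0.00038 and an adjusted p of 0.0508. It missed the threshold, where 0.743% of all genes passed. LBD29 passed without the third of genes lowest in mean level (0.0345), after quantile normalization (0.0465) and with a trended robust prior (0.0399), and its adjusted p ran from 0.0345 to 0.242 over 15 alternatives. For IAA29 the difference was -1.01 with an interval from -2.08 to 0.06 (adjusted p = 0.43), and without wt solid repeat 1 it was -1.66 (adjusted p = 0.0429), the only one of the 6 genes to pass there. For IAA20, GH3.3, LBD16 and WES1 it was 0.57, -0.48, 0.31 and -0.07 (adjusted p = 0.52, 0.488, 0.626 and 0.942). Their 95% intervals were -0.15 to 1.29, -1.05 to 0.09, -0.18 to 0.80 and -0.62 to 0.47, which leave room for unequal effects in either direction.

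**Figure D4:**
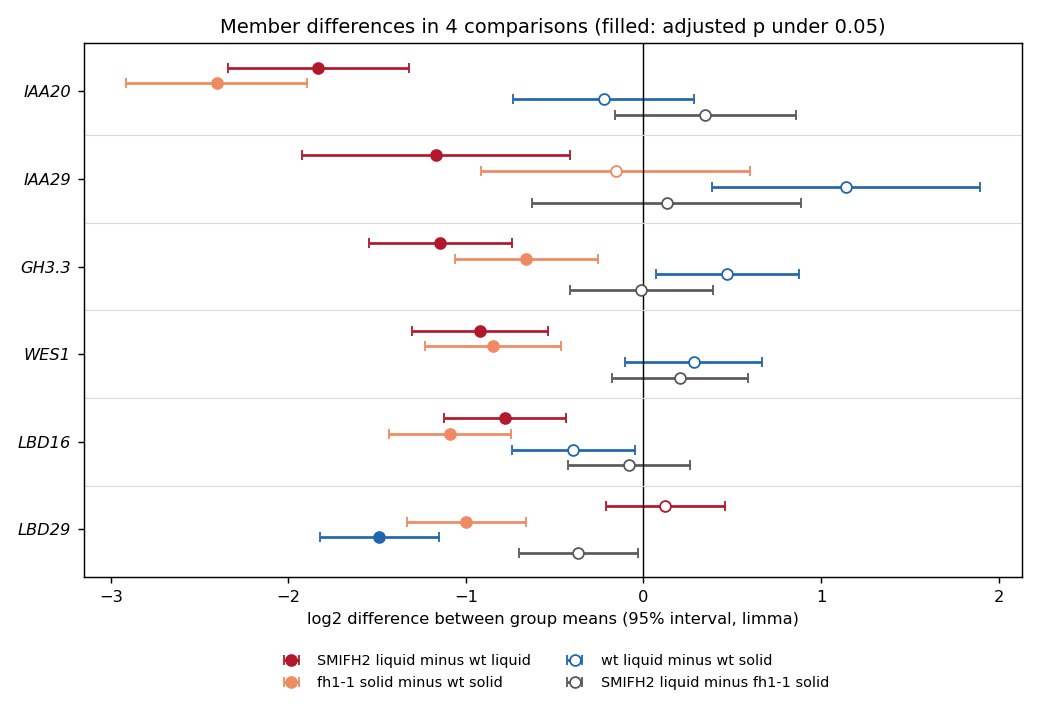
Log2 difference between group means with its 95% interval (limma) for the 6 genes in 4 comparisons; filled symbols passed an adjusted p of 0.05. IAA20, GH3.3, WES1 and LBD16 lie left of 0 under both SMIFH2 and fh1-1, LBD29 lies left of 0 in fh1-1 and between media, and no gene passed for SMIFH2 liquid minus fh1-1 solid.

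SMIFH2 liquid was also set directly against fh1-1 solid, groups that differ in genotype, drug, medium, shaking and light. None of the 6 genes passed in limma, 1 had an unadjusted p under 0.05, and 0.145% of all genes were called. LBD29 differed by -0.37, with a 95% interval from -0.70 to -0.03 (unadjusted p = 0.0348, adjusted p = 0.647). GH3.3 differed by -0.01 with an interval from -0.42 to 0.39, and LBD16 by -0.08 with an interval from -0.43 to 0.26. WES1 differed by 0.21 (-0.18 to 0.59), IAA29 by 0.13 (-0.63 to 0.88) and IAA20 by 0.35 (-0.16 to 0.86). The adjusted p ran from 0.647 to 0.993 over the 6 genes. The groups' arrays did not overlap for 3 of the genes, WES1, LBD16 and LBD29, where 40.6% of all genes did not overlap.

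The mean levels gave each gene an order of groups. For IAA20 wt solid was highest at 4.11 ± 0.34 (SD, n = 2), followed by wt liquid at 3.89 ± 0.22, SMIFH2 liquid at 2.06 ± 0.36 and fh1-1 solid at 1.71 ± 0.16. Arrays overlapped within the upper pair and within the lower pair. For IAA29 wt liquid was highest at 5.15 ± 0.21, and wt solid, SMIFH2 liquid and fh1-1 solid followed at 4.01 ± 0.92, 3.99 ± 0.03 and 3.86 ± 0.19 with overlapping neighbours. For GH3.3 and WES1 wt liquid came first (7.76 ± 0.21 and 8.98 ± 0.28) and wt solid came next (7.29 ± 0.28 and 8.70 ± 0.11). For LBD16 this order turned round, with wt solid at 5.34 ± 0.03 above wt liquid at 4.95 ± 0.21. For LBD29 wt solid at 5.59 ± 0.15 was followed by fh1-1 solid at 4.60 ± 0.08, SMIFH2 liquid at 4.23 ± 0.02 and wt liquid at 4.11 ± 0.08, with no overlap between neighbours.

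Other parts of the auxin pathway were thinly covered by the listed probe sets. None of 15 ARF genes, 6 receptor genes, 16 transport genes or 22 SAUR genes was measured. Of 18 synthesis genes 3 were measured, and 0 passed under SMIFH2 or in fh1-1, with 1 and 0 at an unadjusted p under 0.05. YUC6, a flavin monooxygenase that makes auxin, fell in liquid against solid medium by 0.79 on the log2 scale (SE 0.18, adjusted p = 0.0377). It read 4.24 and 4.22 on the wt liquid arrays, against 4.98 and 5.06 on the wt solid arrays. That call was lost in a fit of only the 4 arrays (0.066), with every probe set tested (0.1), and without either wt liquid array (0.1 and 0.12) or either wt solid array (0.1 and 0.17).

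Of 6 loci listed for auxin oxidation and conjugate turnover 2 were measured, AT1G14120 and AT1G14130, which RefSeq gives no gene name. AT1G14120 rose, by 1.5 ± 0.19 (SE) under SMIFH2 and by 1.05 ± 0.19 in fh1-1 (adjusted p = 0.000657 and 0.00318). It read 5.67 and 5.55 on the SMIFH2 liquid arrays, against 4.34 and 3.86 on the wt liquid arrays. It read 5.81 and 5.55 on the fh1-1 solid arrays, against 4.57 and 4.70 on the wt solid arrays. AT1G14130 did not pass in the fh1-1, SMIFH2 or medium comparison.

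Of 13 shade and PIF genes, a list taken because IAA29 responds to shade, 2 were measured. PIF7, a transcription factor that activates auxin synthesis in shade, read 6.70 and 6.60 on the SMIFH2 liquid arrays, against 3.0 and 3.14 on the wt liquid arrays. It read 6.85 and 6.73 on the fh1-1 solid arrays, against 2.76 and 2.43 on the wt solid arrays. It rose by 3.58 ± 0.16 (SE) under SMIFH2 and 4.20 ± 0.16 in fh1-1 (adjusted p = 2.39e-06 and 6.72e-07), opposite in direction to IAA29 under SMIFH2. HAT2, an auxin-inducible homeodomain factor, differed by 0.23 and 0.31 in these comparisons (adjusted p = 0.505 and 0.307).

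Likeness to each of the 6 genes was measured by Pearson's r over the 8 arrays among the 1804 genes with a symbol, and the 3 highest were taken. The arrays fall into 4 groups, so a high r mainly tells that 2 genes separate the groups alike, and the values carry no test. For IAA20 these genes were PLIM2b, an actin-bundling LIM protein (r = 0.995), RD2 (0.988) and the vacuolar-type proton pump subunit VHA-A1 (0.987). PLIM2b averaged 4.01 in SMIFH2 liquid and 3.97 in fh1-1 solid, against 4.74 in wt liquid and 4.78 in wt solid. For IAA29 they were the Golgi protein ATGRIP (0.977), the aldehyde dehydrogenase ALDH3F1 (0.964) and OTP70 (0.961). For GH3.3 they were TBL37 (0.987), P1R3 (0.986) and the linker histone HIS1-3 (0.981).

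For WES1 the closest genes were the glutathione transferase GSTF3 (r = 0.985), ARL (0.983), an ARGOS-like growth regulator, and RTE1 (0.980), which acts on an ethylene receptor. For LBD16 they were the subtilase ATSBT5.2 (0.988), the nucleoporin NUP155 (0.987) and PRA1.B6 (0.985). ATSBT5.2 averaged 5.92 in SMIFH2 liquid and 5.88 in fh1-1 solid, against 7.38 in wt liquid and 8.48 in wt solid. For LBD29 they were GH3.17 (0.978), the xylan synthesis enzyme GUT2 (0.963) and ACYB-2 (0.934). GUT2 averaged 6.17 in SMIFH2 liquid and 6.23 in fh1-1 solid, against 6.12 in wt liquid and 7.14 in wt solid, so like LBD29 it was high in wt solid alone. LBD16 and LBD29 themselves correlated at r = 0.610, and GH3.3 and WES1 at r = 0.903. Among 16553 genes LBD29 ranked 3891 in likeness to LBD16, and WES1 ranked 298 in likeness to GH3.3. Pairs from different families ran from -0.359 (IAA29 with LBD29) to 0.947 (IAA20 with LBD16).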

How the data were processed

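RNA of 8 seedling pools was hybridised to Affymetrix arrays. The authors deposited log2 values that were made by RMA (background correction, normalization and probe summary) in Affymetrix Expression Console 1.4, with Transcriptome Analysis Console 3.1 also named, per the submitters' processing notes. Groups came from the labels. Of 38408 probe sets, 17504 were listed in the annotation and 16746 had exactly 1 gene. They gave 16554 genes, the brightest probe set standing for each of 163 genes with several. RefSeq (TAIR10.1) gave names for 16418 genes, and since the array annotation names no build, no coordinates are printed. limma 3.58.1 in R 4.3.3 fitted all 8 arrays by group (4 residual and 5.81 prior degrees of freedom), with Benjamini-Hochberg adjustment over all genes in each contrast. The steps were tested on simulated data. Alternatives were a block for the repeat number, a fit of only the 4 arrays of a comparison, a test of every probe set, a test without the third of genes lowest in mean level, probe sets averaged per gene, cyclic loess, quantile normalization, a trended robust prior, and each array left out in turn.

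The members and the 13 lists (203 genes, 42 measured) were chosen with earlier results of these data known. Named were the 6 members, the 2 genes per list and comparison with the smallest adjusted p under 0.05, and the 3 genes most like each member. Other list genes that are named, and GH3.17 in fh1-1, were chosen after their values were seen. Plots were made in Python 3.11.15 with matplotlib 3.10.9.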

Additional observations from a re-analysis of the deposited data

How the results depend on the processing

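Of the 6 genes, those called under the leave-one-out settings were 3 to 6 for fh1-1 (3 without fh1-1 repeat 2), 3 to 5 for SMIFH2 (3 without wt liquid repeat 1, SMIFH2 repeat 1 or SMIFH2 repeat 2), 1 to 2 for the medium, 0 to 1 for the difference of effects and 0 for SMIFH2 against fh1-1. For the difference of effects 1 member, LBD29, was called without the third of genes lowest in mean level, after quantile normalization and with a trended robust prior. In a leave-one-out fit the lone array of a group is assumed to vary like the other groups, and the cause of each lost call was not tested. Direction reversed for IAA29 in fh1-1 (0.49 without wt solid repeat 1, in a leave-one-out range of -0.81 to 0.49), IAA20 between media (0.019 without wt solid repeat 2, range -0.47 to 0.019) and WES1 in the difference of effects (0.0035 without wt solid repeat 2 and 0.12 without wt liquid repeat 1, range -0.27 to 0.12). For SMIFH2 against fh1-1 it reversed for GH3.3 (0.054 without fh1-1 repeat 1 and 0.015 without SMIFH2 repeat 2, range -0.078 to 0.054) and IAA29 (-0.0081 without fh1-1 repeat 2, range -0.0081 to 0.27). None of these genes had been called in that comparison with all arrays.

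All-gene counts moved by over 1.5 times in places. For fh1-1 3734 genes were called, 6205 probe sets with every probe set tested, and 2056 to 3952 genes under leave-one-out. For SMIFH2 2459 were called and 1250 to 2396 under leave-one-out. For the medium 779 were called, 321 with only the 4 arrays and 284 to 599 under leave-one-out. For the difference of effects 123 were called, 77 under the block, 3 with every probe set, 296 with the trended prior and 2 to 117 under leave-one-out. For SMIFH2 against fh1-1 24 were called, 15 with only the 4 arrays, 12 under the block, 0 with every probe set, 38 with the trended prior and 0 to 24 under leave-one-out. Repeat numbers did not pair the arrays (correlations of deviations from -0.055 to 0.014). With the repeat number as a replicate block 5, 5, 1, 0 and 0 members were called for fh1-1, SMIFH2, the medium, the difference and the direct comparison, and no member's call changed. The shoot markers called between media were 2 under the block, against 4 without it.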
